A study of Mus musculus with 42 samples.

Results

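The messenger RNAs of 6 secreted proteins were followed in mouse liver: the angiopoietin-like proteins Angptl4, Angptl6 and Angptl8 and the lipases Lpl, Lipc and Lipg. They were selected by symbol as a functional family, with earlier results of these data known, and all 6 of the 6 symbols were found once each among the 55573 gene IDs of both count tables. Treatment of these male C57B6/J mice was with vehicle, with corticosterone (CORT), the chief adrenal glucocorticoid in rodents, with enzalutamide (ENZA), which blocks the androgen receptor, or with CORT+ENZA, to examine crosstalk between glucocorticoid and androgen signalling. The acute arm held vehicle, CORT, ENZA and CORT+ENZA groups and the chronic arm held vehicle, CORT and CORT+ENZA groups, with 6 mice in each group and 42 libraries in all. The sources used here do not give doses, routes, days of treatment or the age of the mice, and a chronic group on ENZA alone was not analysed here. Acute RNA was prepared with an RNeasy kit and chronic RNA with a NucleoSpin kit, so kit and duration cannot be told apart and levels were compared only within an arm. Depth, as reads counted to genes, was 18674151 to 20464521 per acute library and 15381724 to 19581723 per chronic library.

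Lipoprotein lipase, the product of Lpl, splits triglyceride in chylomicrons and very low density lipoproteins on the capillary wall, mainly in fat, muscle and heart, and adult hepatocytes make little of it. Hepatic lipase (Lipc) is made by hepatocytes and acts on remnant particles and high density lipoprotein, while endothelial lipase (Lipg) prefers the phospholipids of high density lipoprotein. Angptl4 inactivates lipoprotein lipase and is known as a gene induced by fasting, fatty acids and glucocorticoids. Angptl8 is induced by feeding and insulin and helps to hold lipoprotein lipase back in muscle and heart. Angptl6, also called angiopoietin-related growth factor, is a liver-derived member of the family that is not known mainly as a lipase inhibitor.

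On GRCm38 (GENCODE M21 annotation), Angptl4 (ENSMUSG00000002289) lies on chromosome 17 from 33773750 to 33781830 on the minus strand and encodes 410 codons. Angptl6 (ENSMUSG00000038742) lies on chromosome 9 from 20873808 to 20879727 on the minus strand with 457 codons. Angptl8 (ENSMUSG00000047822), the shortest with 198 codons, lies on chromosome 9 from 21835510 to 21837347 on the plus strand, inside Dock6 on the opposite strand, with 0 exon bases shared. Among the lipases, Lpl (ENSMUSG00000015568) lies on chromosome 8 from 68880491 to 68907448 on the plus strand with 474 codons. Lipc (ENSMUSG00000032207) lies on chromosome 9 from 70798128 to 70952226 on the minus strand with 510 codons. Lipg is placed where its values are described. Angptl6 shares 265 exon bases with the antisense gene A230050P20Rik, and the strand setting of the counting is not given, so its counts are uncertain. Of its stretches of 50 bases, 14.2% also occur in another gene, against 4.11% for Lpl and 0% for the other 4.

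The promoters of Angptl8, Angptl6 and Lipc, 3 of the 6 members, are shown from the entries taken from the RefSeq promoter table (GRCm38.p6). The selection of entries does not exclude that the table holds one for a member not shown. Each line gives the 250 bases before the start site, 5′ to 3′ on the strand of the gene, and capitals mark matches to the motifs named after the lines.
Angptl8 (chr9:21835260-21835509, plus strand): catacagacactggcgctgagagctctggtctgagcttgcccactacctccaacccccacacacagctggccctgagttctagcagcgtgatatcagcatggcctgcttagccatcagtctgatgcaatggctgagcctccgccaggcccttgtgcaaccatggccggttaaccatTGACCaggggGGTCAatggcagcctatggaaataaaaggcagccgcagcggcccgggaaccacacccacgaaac
Angptl6 (chr9:20879711-20879960, minus strand): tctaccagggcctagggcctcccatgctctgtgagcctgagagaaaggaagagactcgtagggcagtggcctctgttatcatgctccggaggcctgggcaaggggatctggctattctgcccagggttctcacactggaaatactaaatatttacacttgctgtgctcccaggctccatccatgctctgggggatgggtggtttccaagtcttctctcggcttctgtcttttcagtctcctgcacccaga
Lipc (chr9:70952222-70952471, minus strand): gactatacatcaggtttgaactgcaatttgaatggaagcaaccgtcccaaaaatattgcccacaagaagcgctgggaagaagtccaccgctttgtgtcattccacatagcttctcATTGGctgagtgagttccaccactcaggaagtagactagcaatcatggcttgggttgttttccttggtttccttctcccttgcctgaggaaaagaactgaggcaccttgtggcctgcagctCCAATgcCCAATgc
The letters searched on both strands were TGTTCT (a glucocorticoid receptor half-site), GGTCA (the core read by many nuclear receptors), CACGTG (an E-box), TATAAA and CCAAT, and GGTCA was added after the sequences had been seen. Angptl8 holds 2 GGTCA cores in opposite orientation, at 74 and 64 bases before the start, as do 8.16% of the 32851 promoters of the table with 2 or more, while 35.24% hold at least 1. Lipc holds 3 CCAAT letters, at 135, 14 and 7 bases before the start, and 33.85% of all promoters hold at least 1. Angptl6 holds none of the 5. TGTTCT was in none of the 3 windows and in 16.08% of all promoters, CACGTG in none and in 6.021%, and TATAAA in none and in 12.37%. A second Lipc entry further into the gene holds 3 GGTCA cores and 1 CCAAT.

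Known glucocorticoid targets served as a check on the CORT groups. Fkbp5, a cochaperone of steroid receptors, was higher by 1.26 ± 0.24 on the log2 scale (± SE, edgeR adjusted p = 0.00595) with acute CORT and by 2.89 ± 0.40 (adjusted p = 0.000108) with chronic CORT. Tsc22d3, the glucocorticoid-induced leucine zipper gene, was higher by 0.83 ± 0.17 with acute CORT (adjusted p = 0.0092), and with chronic CORT its value was 0.58 ± 0.26 (adjusted p = 0.143). Hepatocyte markers summed to between 61710 and 140200 CPM (read counts scaled to library size after TMM normalization) in every library, and the 4 fat markers Adipoq, Plin1, Retn and Lep to at most 0.211 CPM in the acute arm.

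Compared per kilobase of the longest coding transcript in untreated livers, Angptl8 and Lipc were the abundant members. In acute vehicle mice the mean level was 162 ± 165 CPM per kb (SD, n = 6) for Angptl8, 68.5 ± 12.3 for Lipc, 14.5 ± 5.01 for Angptl4, 6.27 ± 1.33 for Angptl6, 5.59 ± 1.90 for Lpl and 2.42 ± 1.09 for Lipg. In chronic vehicle mice the order was Angptl8 at 101 ± 49.2, Lipc at 98.9 ± 20.2, Angptl4 at 27.7 ± 10.8, Lpl at 8.74 ± 3.55, Angptl6 at 7.50 ± 1.37 and Lipg at 3.38 ± 0.59 CPM per kb. The ranges of Angptl8 and Lipc overlapped in both arms, as did those of Lpl and Angptl6, so neither pair has an order beyond its spread. In the acute arm the Lipg range overlapped those of Lpl and Angptl6 as well. Angptl4 lay above Angptl6, Lpl and Lipg and below Angptl8 and Lipc in every vehicle mouse of an arm. Within acute groups Angptl8 varied most between mice, with an SD of 0.93 on the log2 scale, and Lipc and Angptl6 least, at 0.22 and 0.26. Within chronic groups Lpl varied most, at 0.78, followed by Angptl8 at 0.69.

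**Figure D1:**
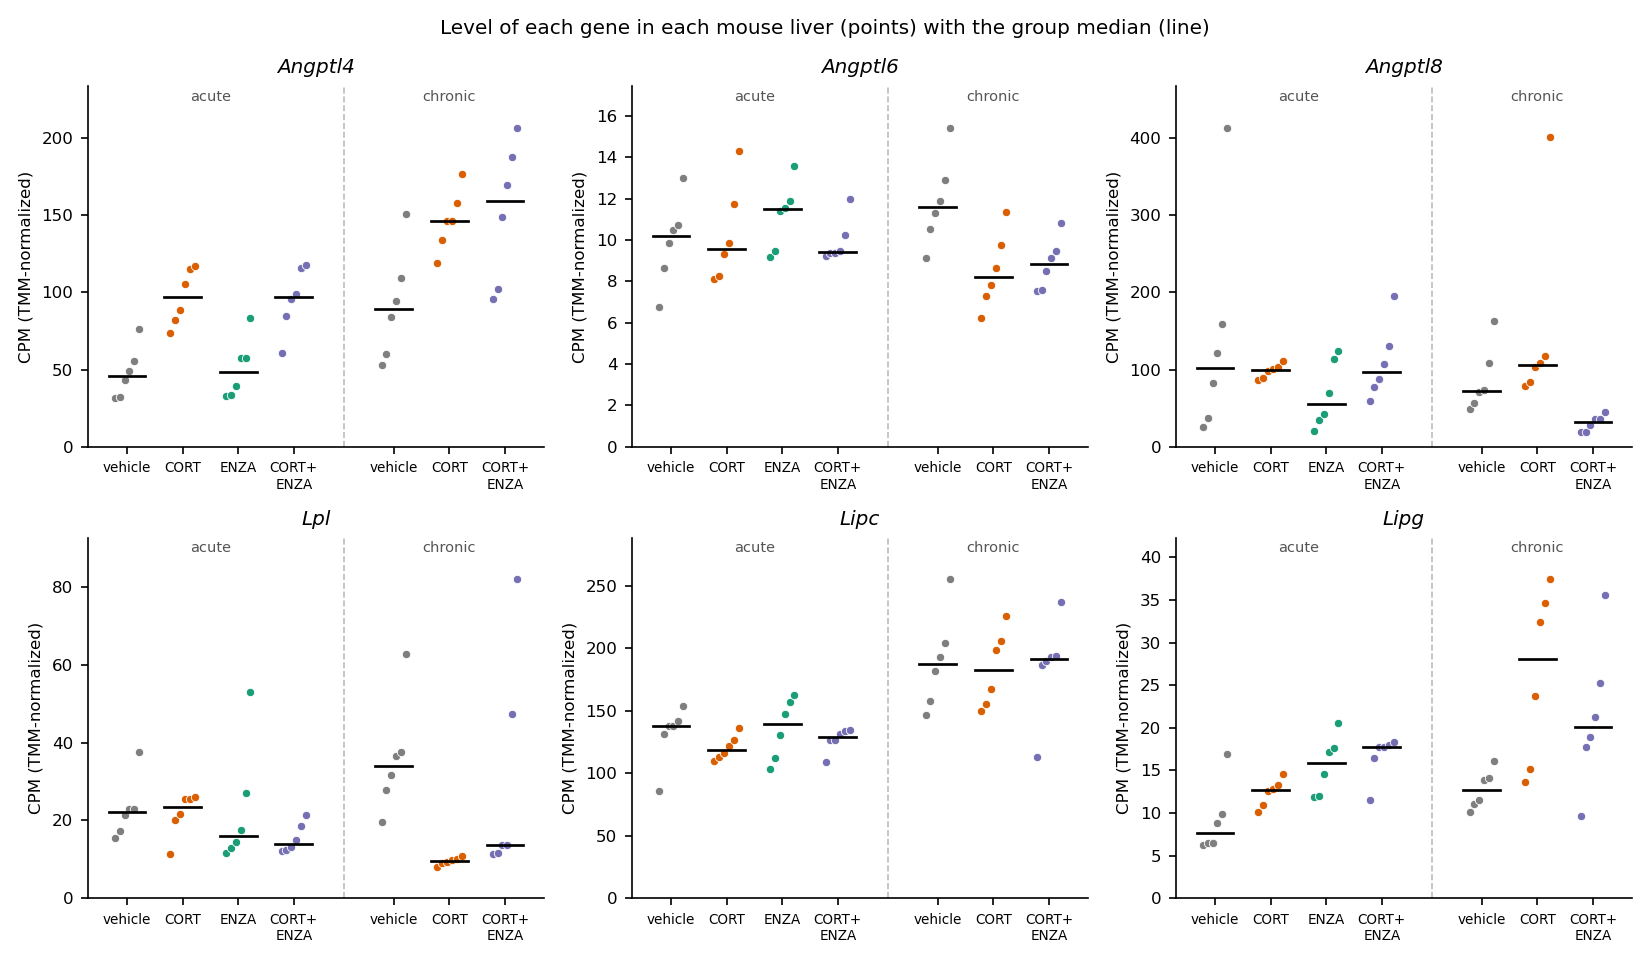
Normalized level (CPM, linear axis from 0) of each member in each mouse, with acute groups left and chronic groups right of the dashed line; points are mice and bars are group medians. Angptl4 stands higher in all groups given CORT than in vehicle, Angptl8 is lowest in chronic CORT+ENZA, where 6 of 6 mice lie between 18.8 and 45.2 CPM, and Lpl is lowest in chronic CORT.

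Among the inhibitors, Angptl4 was higher than in vehicle in the CORT and the CORT+ENZA groups of both arms. The effect of CORT under ENZA could be compared only in the acute arm, which held a group on ENZA alone. In acute vehicle mice the level ran from 31.6 through a median of 46.1 to 76.0 CPM, and under acute CORT from 73.4 through 96.9 to 117 CPM. Of the 6 CORT mice, 5 lay above every vehicle mouse, and the vehicle mouse that reached into the CORT range was L1A. The log2 fold change was 1.02 ± 0.23, a 2.02-fold rise (adjusted p = 0.023). Angptl4 was the member called in this comparison, 1 of 6, beside 1.62% of the 13733 genes tested (222 genes), and the median log2 fold change was -0.02 over the members and -0.01 over all genes. Leaving out any 1 of 4 mice (vehicle L13A or L25A, CORT L8A or L26A) moved the adjusted p above 0.05, to at most 0.0595. B cell markers were lower in acute CORT for 4 of the 5 tested, with a median of -1.54 and a sum of 2.04 to 3.76 CPM against 3.99 to 10.2 CPM in vehicle, and their part in the Angptl4 value was not tested. In whole liver, fewer cells of a type and less RNA per cell cannot be told apart.

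ENZA alone left Angptl4 at 32.8 to 83.1 CPM with a median of 48.5, overlapping the vehicle range, with a log2 fold change of 0.08 ± 0.23 (adjusted p = 0.905). With CORT+ENZA the level ran from 60.6 through 97.1 to 117 CPM, and 5 of 6 mice lay above every vehicle mouse and 5 of 6 above every ENZA mouse. The log2 fold change was 0.99 ± 0.23 against vehicle (adjusted p = 0.0207) and 0.91 ± 0.23 against ENZA (adjusted p = 0.0403), a 1.99-fold and a 1.88-fold rise. Against CORT alone it was -0.02 ± 0.23 (adjusted p = 0.999), with a 95% interval of -0.47 to 0.42. The call against ENZA was lost when any 1 of 10 mice was left out, with an adjusted p of at most 0.0994.

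In the chronic arm Angptl4 ran from 52.7 through 88.9 to 151 CPM in vehicle mice, from 119 through 146 to 177 CPM under CORT and from 95.6 through 159 to 207 CPM under CORT+ENZA. The groups overlapped, with 2 of 6 CORT mice and 3 of 6 CORT+ENZA mice above every vehicle mouse. The rise was 1.60-fold with CORT (log2 0.68 ± 0.23, adjusted p = 0.0478) and 1.65-fold with CORT+ENZA (log2 0.73 ± 0.23, adjusted p = 0.034). ENZA added to CORT gave a log2 fold change of 0.05 ± 0.23 (adjusted p = 0.922). Both chronic rises lie near the threshold, and 10 of 12 single omissions for CORT and 6 of 12 for CORT+ENZA moved the adjusted p above 0.05, to at most 0.0984 and 0.0808. Without vehicle mice 10 and 15 and CORT+ENZA mouse 5, 3 livers described below, they were 0.62 and 0.68 with adjusted p of 0.141 and 0.125. The difference between the chronic and the acute CORT effect on Angptl4 was -0.31 ± 0.34 (adjusted p = 0.657).

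Angptl8, the feeding-responsive inhibitor, gave the largest fall of the 6 members, and it came with ENZA added to chronic CORT. Levels ran from 48.9 through 72.0 to 163 CPM in chronic vehicle mice and from 78.1 through 106 to 401 CPM in chronic CORT mice, but from 18.8 through 31.7 to 45.2 CPM in chronic CORT+ENZA mice. All 6 CORT+ENZA mice lay below all 12 other chronic mice. Against CORT the log2 fold change was -2.28 ± 0.42, a level of 0.205 of that in CORT mice (adjusted p = 0.00204). Against vehicle it was -1.51 ± 0.42, a level of 0.351 (adjusted p = 0.0169).

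Chronic CORT alone gave Angptl8 a log2 fold change of 0.77 ± 0.40 that did not pass the test (adjusted p = 0.202). The mean of 149 ± 125 CPM rested on mouse 1 at 401 CPM, and the other 5 CORT mice averaged 98.2 ± 16.6 CPM. Without mouse 1 the fall with added ENZA was still called, since with any single mouse left out it ran from -2.43 to -1.69 with an adjusted p of at most 0.00663. The fall against vehicle was lost without vehicle mice 10 and 15 and CORT+ENZA mouse 5 (log2 -1.20, adjusted p = 0.103). Of 7 hepatocyte markers, 3 were lower in CORT+ENZA than in CORT and 4 were not called, beside 11.8% of all genes called. Of the 7 markers, 2 had a log2 fold change above 0. Their median log2 fold change was -0.37, and their sum ran from 61710 to 82010 CPM against 91820 to 125500 CPM in CORT and 101100 to 120800 CPM in vehicle. Those lower were Ttr, Alb and Hnf4a. Their part in the fall of Angptl8 was not tested.

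In the acute arm Angptl8 was called in none of the 5 comparisons. Vehicle mice spanned 26.1 through 102 to 413 CPM, ENZA mice 20.6 through 55.8 to 123 CPM and CORT+ENZA mice 59.2 through 96.9 to 195 CPM, while the 6 CORT mice lay within 86.5 to 111 CPM. The highest vehicle value was that of L1A, and the other 5 vehicle mice averaged 85.4 ± 55.8 CPM against 140 ± 143 for all 6. With ENZA alone the log2 fold change was -1.06 ± 0.53 (adjusted p = 0.359). The effect of ENZA added to CORT was lower in the chronic than in the acute arm by 2.48 ± 0.70 on the log2 scale, which missed the threshold (adjusted p = 0.0696).

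Angptl6 was not called in any acute comparison and was lower in both chronic treatments. Chronic vehicle mice ran from 9.11 through 11.6 to 15.4 CPM, CORT mice from 6.25 through 8.23 to 11.3 CPM and CORT+ENZA mice from 7.51 through 8.83 to 10.8 CPM. The ranges overlapped, with 4 of 6 CORT and 3 of 6 CORT+ENZA mice below every vehicle mouse. The log2 fold change was -0.48 ± 0.14 with CORT (adjusted p = 0.0253) and -0.42 ± 0.14 with CORT+ENZA (adjusted p = 0.0448), and 0.06 ± 0.14 between both treatments (adjusted p = 0.855). Vehicle mouse 10 was highest at 15.4 CPM, and without it the 2 values were -0.39 (adjusted p = 0.0675) and -0.34 (adjusted p = 0.112). The antisense neighbour A230050P20Rik had log2 fold changes of -0.29 ± 0.26 with chronic CORT (adjusted p = 0.481) and -0.66 ± 0.27 with chronic CORT+ENZA (adjusted p = 0.0954). Stellate cell markers were lower in chronic CORT for 2 of 10, near the 18.3% called among all genes, with a median of -0.25. Their part in the Angptl6 value was not tested.

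**Figure D2:**
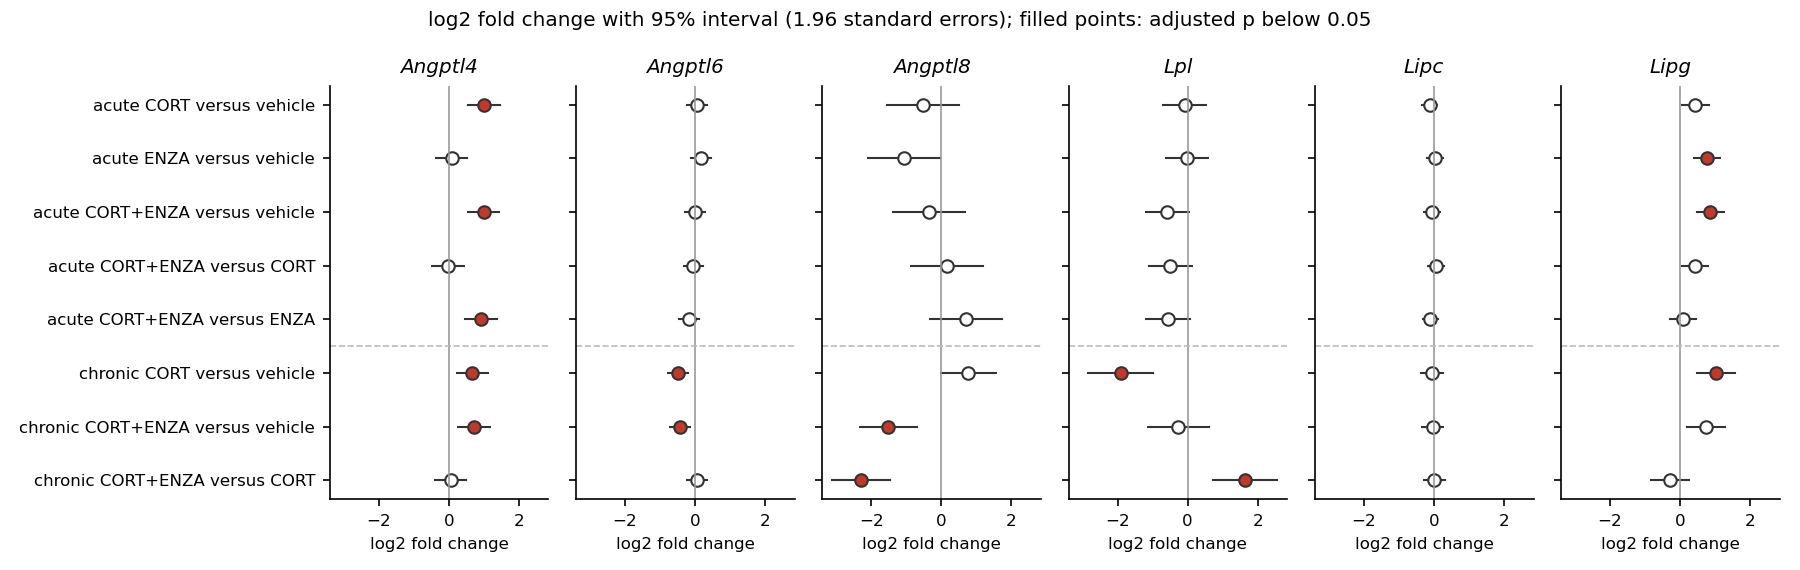
log2 fold change of each member in 8 comparisons (horizontal axis) with its 95% interval as a bar; filled points have an edgeR adjusted p below 0.05. Angptl4 is filled in all 5 comparisons that set a CORT group against a group without CORT, Lipc in none, and the largest values are Angptl8 at -2.28 and Lpl at -1.91 in the chronic arm.

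Lpl, the lipase that the inhibitors act on, was low in every chronic CORT liver. Chronic vehicle mice ran from 19.6 through 34.1 to 62.7 CPM and CORT mice from 8.05 through 9.66 to 11.0 CPM, so no CORT mouse reached the lowest vehicle mouse. The log2 fold change was -1.91 ± 0.47, a level of 0.266 of that in vehicle mice (adjusted p = 0.00948), and with any single mouse left out it ran from -2.04 to -1.68 with an adjusted p of at most 0.0245. With Angptl4, Angptl6 and Lipg, 4 of 6 members were called with chronic CORT, 2 higher and 2 lower, beside 18.3% of the 13099 genes tested. The median log2 fold change was 0.31 over the members and -0.01 over all genes.

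In chronic CORT+ENZA mice Lpl split into 4 livers at 11.5 to 13.7 CPM and 2 livers far above them, mouse 5 at 47.4 and mouse 18 at 82.0 CPM. All 6 lay above all 6 CORT mice, by little in the lower 4. The log2 fold change against CORT was 1.65 ± 0.47 (adjusted p = 0.0303), and against vehicle -0.27 ± 0.44 (adjusted p = 0.729). The rise against CORT rests in size on mice 5 and 18, and any 1 of 8 omissions among 12 mice moved it above the threshold. It was 1.03 without mouse 18 (adjusted p = 0.0866) and 0.39 without CORT+ENZA mice 5 and 18 and vehicle mice 10 and 15 (adjusted p = 0.113).

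In the chronic arm, markers of fat, muscle or Kupffer cells stood high in the livers with the highest Lpl, CORT+ENZA mice 18 and 5 and vehicle mouse 15. CORT+ENZA mouse 5 had 242 CPM summed over 6 skeletal muscle markers (Acta1, Ckm, Myh4, Tnnt3, Mylpf and Actn3) and 26.7 CPM over the 4 fat markers, and vehicle mouse 15, with the highest Lpl of its group, had 93.3 and 43.0 CPM. Vehicle mouse 10 had 32.6 CPM of the muscle markers and 0 CPM of the fat markers, with Lpl at 36.6 CPM, the third highest of its group. The 4 fat markers were picked from a list of 8 adipocyte markers after their values had been seen, since the liver itself makes much Car3, another of the 8. The whole list summed to 3101 to 3970 CPM in vehicle, 901 to 1890 in CORT and 789 to 1263 in CORT+ENZA. Of the 3 tested, 1, Car3, was lower with CORT, beside 18.3% of all genes called. In the other 15 chronic livers the muscle sum stayed at or below 2.59 CPM and the fat sum at or below 3.97 CPM. CORT+ENZA mouse 18 had low muscle and fat sums (0.438 and 0 CPM) but 786 CPM over 10 Kupffer cell markers (Clec4f, Vsig4, Cd5l, Adgre1, Marco, Timd4, C1qa, C1qb, C1qc and Csf1r) and 738 CPM over 10 stellate cell markers. The other 17 chronic livers had 124 to 451 CPM and 344 to 525 CPM of these.

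With the 4 livers left out, Lpl ran from 19.6 to 37.5 CPM in 4 vehicle mice and from 8.05 to 11.0 CPM in 6 CORT mice, still without overlap, and the CORT+ENZA mice ran from 11.5 to 13.7 CPM. The Lpl, chronic CORT versus vehicle value in that fit was -1.60 ± 0.14 (adjusted p = 7.3e-06), while with CORT+ENZA mouse 18 kept and the other 3 left out it was -1.61 (adjusted p = 0.053). The 4 livers were chosen after the markers had been seen. Among them were the livers with the highest Lpl of the arm, CORT+ENZA mice 18 and 5 and vehicle mouse 15. Their omission lowered the spread of Lpl that enters the test. The value itself was smaller in size than the -1.91 ± 0.47 with all mice. The smaller adjusted p is therefore no further support for the fall. Kupffer cell markers themselves were lower in chronic CORT for 2 of 10, near the 18.3% called among all genes. Their median log2 fold change was -0.79, and their sum ran from 124 through 178 to 216 CPM in CORT mice against 144 through 310 to 451 CPM in vehicle mice. With ENZA added to CORT 2 of the 10 were higher, beside 11.8% of all genes called, with a median of 0.85. The part of any of these cells in the Lpl values was not tested beyond these omissions.

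**Figure D3:**
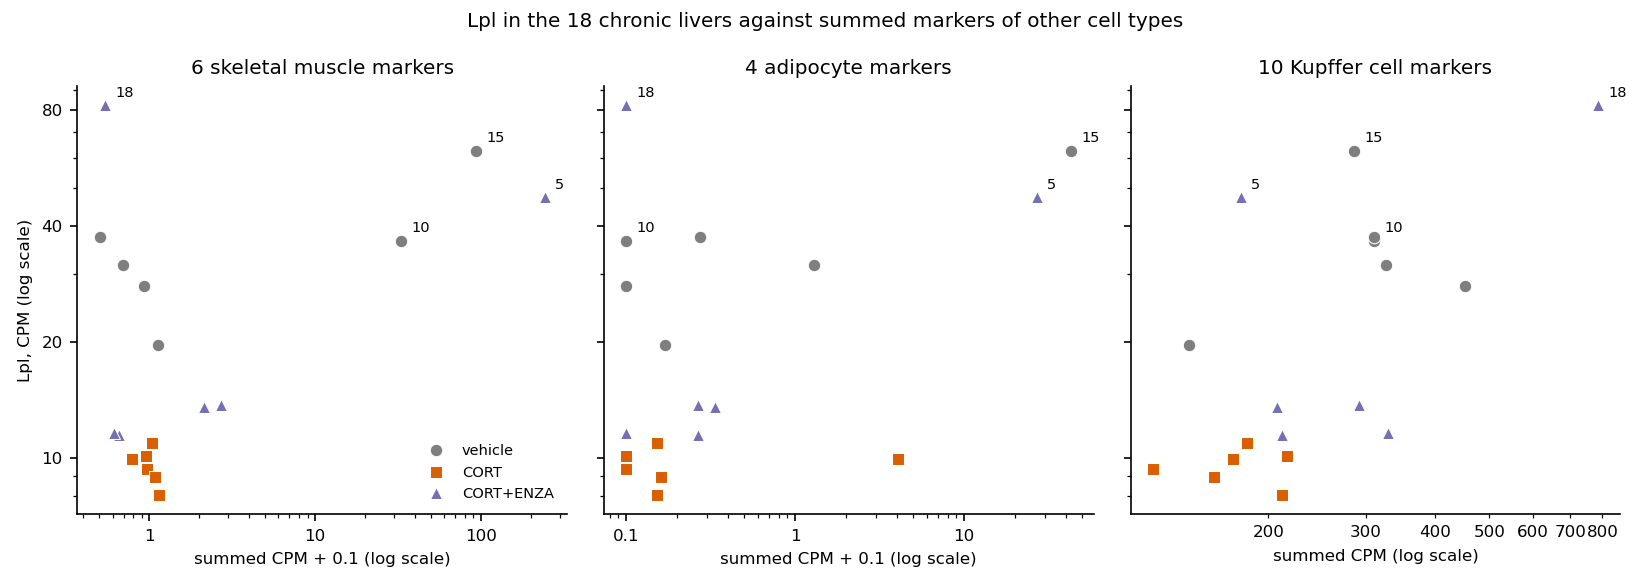
Lpl (CPM, log axis) in the 18 chronic livers against the summed CPM of skeletal muscle, adipocyte and Kupffer cell markers (log axes, with 0.1 added to the muscle and adipocyte sums so that 0 can be drawn). Mice 15 and 5 stand at the right of the muscle and adipocyte panels, mouse 18 at the right of the Kupffer cell panel, and the 6 CORT mice lie below all other livers in Lpl.

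In the acute arm Lpl was not called in any comparison. It ran from 15.5 through 22.2 to 37.6 CPM in vehicle, 11.3 through 23.5 to 26.0 CPM in CORT, 11.7 through 16.0 to 52.9 CPM in ENZA and 12.1 through 14.1 to 21.5 CPM in CORT+ENZA mice, and all 4 groups overlapped. The lowest acute value was that of CORT mouse L2A, and the highest that of ENZA mouse L17A. Mouse L17A had fat, muscle and Kupffer cell marker sums of 0, 0.517 and 246 CPM. The highest acute Kupffer cell marker sum, 844 CPM, was that of ENZA mouse L29A, with Lpl at 27.0 CPM. With CORT the log2 fold change of Lpl was -0.08 ± 0.31 (adjusted p = 0.94). The chronic minus acute difference in the CORT effect was -1.79 ± 0.56 and passed the test (adjusted p = 0.0466). Lpl was the member called for that difference, 1 of 6, beside 6.17% of 14138 genes, and 20 of 24 single omissions moved it above 0.05, to at most 0.0982. The effect of ENZA added to CORT differed by 2.09 ± 0.56 between the arms (adjusted p = 0.0522), where 0 of 6 members and 1.27% of genes were called.

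Lipg, endothelial lipase (ENSMUSG00000053846, chromosome 18 from 74939322 to 74961263 on the minus strand, 500 codons), rose in 3 of 5 treated groups: with acute ENZA, with acute CORT+ENZA and with chronic CORT. In acute vehicle mice it ran from 6.22 through 7.67 to 17.0 CPM, in CORT mice from 10.1 through 12.7 to 14.6, in ENZA mice from 11.8 through 15.9 to 20.5 and in CORT+ENZA mice from 11.5 through 17.8 to 18.3 CPM. The vehicle mouse L1A at 17.0 CPM lay inside the treated ranges, and the other 5 vehicle mice, at up to 9.94 CPM, lay below every treated mouse of the arm. ENZA alone gave a 1.70-fold rise (log2 0.77 ± 0.20, adjusted p = 0.0483), the 1 call among 6 members beside 1.31% of all genes. CORT+ENZA gave a 1.81-fold rise against vehicle (log2 0.86 ± 0.20, adjusted p = 0.0167), and with Angptl4 made 2 of 6 members called beside 2.47% of all genes. With CORT alone the value was 0.43 ± 0.20 (adjusted p = 0.315). Of 12 single omissions 1 was called, that of L1A, at 0.71 (Lipg, acute CORT versus vehicle, adjusted p = 0.0202). Leaving out the highest vehicle mouse raises the value by itself, so that call is no support for a rise.

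Against each single agent CORT+ENZA passed no test for Lipg. Its log2 fold change was 0.43 ± 0.19 against CORT (adjusted p = 0.935), with a 95% interval of 0.05 to 0.81, and 0.09 ± 0.19 against ENZA (adjusted p = 0.896), with an interval of -0.29 to 0.47. In these comparisons 0 of 6 members were called against CORT, beside 0.175% of genes, and 1 of 6, Angptl4, against ENZA, beside 1.81%. The test of whether CORT and ENZA act additively in the acute arm called 0 of 6 members and 0% of genes in edgeR, with 501 genes at an unadjusted p under 0.05, and DESeq2 and limma-voom also called 0 genes. The ENZA call was lost when any 1 of 10 mice was left out (adjusted p up to 0.111) and in a fit of ENZA and vehicle mice only (adjusted p = 0.185), and the CORT+ENZA call was lost in a fit of those 2 groups only (adjusted p = 0.068).

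In the chronic arm Lipg ran from 10.2 through 12.8 to 16.1 CPM in vehicle, from 13.7 through 28.1 to 37.5 CPM in CORT and from 9.64 through 20.1 to 35.6 CPM in CORT+ENZA mice. Of the CORT mice 4 of 6, and of the CORT+ENZA mice 5 of 6, lay above every vehicle mouse, and the lowest CORT+ENZA mouse was mouse 18. The rise with CORT was 2.04-fold (log2 1.03 ± 0.28, adjusted p = 0.0168), and without vehicle mice 10 and 15 and CORT+ENZA mouse 5 it was 0.99 ± 0.34 on the log2 scale and not called (Lipg, chronic CORT versus vehicle, adjusted p = 0.077). With CORT+ENZA the value was 0.74 ± 0.28 (adjusted p = 0.0772). Of 12 single omissions 1 was called, that of CORT+ENZA mouse 18, at 0.89 (Lipg, chronic CORT+ENZA versus vehicle, adjusted p = 0.0188). Leaving out the lowest CORT+ENZA mouse raises the value by itself, so that call is no support for a rise. In all, 3 of 6 members were called against vehicle, Angptl4 higher and Angptl6 and Angptl8 lower, beside 18.6% of genes. Between both treatments it was -0.29 ± 0.27 (adjusted p = 0.553). There, 2 of 6 members were called, Lpl higher and Angptl8 lower, beside 11.8% of genes. Of the 10 endothelial cell markers, 0 were called in any comparison, with chronic medians of -0.25 for CORT and -0.34 for CORT+ENZA against vehicle.

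Lipc, hepatic lipase, passed no test in any of the 11 comparisons, including those between the arms. It ran from 86.0 through 138 to 154 CPM in acute vehicle mice and from 147 through 188 to 256 CPM in chronic vehicle mice. Acute CORT mice ran from 110 through 119 to 136 CPM, ENZA mice from 104 through 139 to 163 CPM and CORT+ENZA mice from 109 through 129 to 134 CPM. Chronic CORT mice ran from 150 through 183 to 226 CPM and CORT+ENZA mice from 113 through 192 to 237 CPM. All groups of an arm overlapped. Its value farthest from 0 among the 11 was -0.12 ± 0.12, with acute CORT (adjusted p = 0.683), and with chronic CORT the 95% interval ran from -0.35 to 0.26.

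Some single livers stood at an end of the range of their group for several members, and those named here are examples. Acute vehicle mouse L1A was the highest of its group for Angptl4, Angptl8 and Lipg. Acute vehicle mouse L31A was the highest for Lpl and the lowest for Lipc, Angptl4 and Angptl8. Chronic CORT+ENZA mouse 18 was the highest for Lpl and the lowest for Lipc, Angptl4 and Lipg. Chronic vehicle mouse 11 was the highest for Angptl4, Lipc and Lipg and the lowest for Lpl and Angptl6. Acute CORT+ENZA mouse L30A was the highest for Angptl8, Lpl and Lipg and the lowest for Angptl4 and Lipc. Over deviations from the group mean, none of 30 correlations between members (15 pairs in each arm) passed a permutation test after adjustment. The 4 with the smallest adjusted p for Pearson's r were in the acute arm (n = 24), all at 0.0918. Angptl8 with Lipg had r = 0.68 (permutation p = 0.00693) and Spearman rho = 0.47 (permutation p = 0.053, adjusted p = 0.328), and Angptl4 with Lipc had r = 0.61 (permutation p = 0.0102) and rho = 0.53 (permutation p = 0.0169, adjusted p = 0.253). Without the 2 livers farthest from the median of the first gene, these r were 0.46 and 0.58. Lpl with Lipc had r = -0.62 (permutation p = 0.0068) and rho = -0.49 (permutation p = 0.0356, adjusted p = 0.328), and Lpl with Lipg had r = -0.51 (permutation p = 0.0122) and rho = -0.60 (permutation p = 0.00453, adjusted p = 0.136). Without L17A and L2A, farthest from the median of Lpl, these r were -0.66 and -0.51.

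Genes with a like course over the livers were taken as those with the highest r in both arms, by the lower of r over 24 acute and r over 18 chronic livers, among 11894 genes. For Angptl4 they were Il1r1, the interleukin-1 receptor gene (r = 0.86 and 0.85), Pex11a, a peroxisome division gene (0.83 and 0.87), and Nlrp12. For Lipg they were Kcnk5, a potassium channel gene (0.76 and 0.88), Abcb11, the bile salt export pump gene (0.67 and 0.68), and Abhd15. For Lpl they were Rhoc, a small GTPase gene (0.71 and 0.72), Tspan15 and Sparc, a matrix protein gene (0.66 and 0.92). For Angptl6 they were Pth1r, the parathyroid hormone receptor gene (0.68 and 0.77), Colec11 (0.66 and 0.64), which was among the stellate cell markers, and Cadm3. Angptl8 was most like Pdik1l, Dancr and Gfer, with r of at most 0.70 in either arm, and Lipc most like Zfp825, Cyp2d26 and Sult2a8. The values of r include the differences between groups and are given as a description.

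Around the members, a list of 24 genes of lipoprotein lipase regulation and lipoprotein traffic had 0 of 24 genes called in each acute comparison, where at most 2.47% of all genes were called. With chronic CORT 8 of 24 were higher and 1 lower, beside 18.3% of all genes called, with a median log2 fold change of 0.15 beside -0.01 over all genes. Apoa4, a chylomicron apolipoprotein, was higher by 3.14 ± 0.41 (adjusted p = 5.58e-05), Pcsk5, a convertase that cleaves endothelial lipase, by 0.86 ± 0.11 (adjusted p = 3.9e-05), and Apoc3, an apolipoprotein that restrains lipoprotein lipase, by 0.72 ± 0.11 (adjusted p = 0.000192). Pltp, the phospholipid transfer protein gene, fell by 0.94 ± 0.18 (adjusted p = 0.00132).

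With chronic CORT+ENZA 8 of the 24 were higher and 3 lower than in vehicle, beside 18.6% of all genes called, with a median of 0.09 beside -0.01 over all genes. Against CORT 0 were higher and 2 lower, a share below the 11.8% called among all genes, with a median of -0.12. Against CORT these were Apoc3, which fell by 0.72 ± 0.11 (adjusted p = 0.000252) from 2933 ± 414 to 1783 ± 78.8 CPM, beside 1780 ± 312 in vehicle, and Gpihbp1, the capillary anchor of lipoprotein lipase, which fell by 0.46 ± 0.14 (adjusted p = 0.0393). Vldlr, the very low density lipoprotein receptor gene, was lower than in vehicle by 1.71 ± 0.44 (adjusted p = 0.0101). The activators of lipoprotein lipase were not called: Apoc2 had -0.85 ± 0.28 against CORT (adjusted p = 0.0592) and Apoa5 -0.10 ± 0.14 (adjusted p = 0.694). Lmf1, needed for the lipase to fold, had 0.09 ± 0.09 (adjusted p = 0.584).

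**Figure D4:**
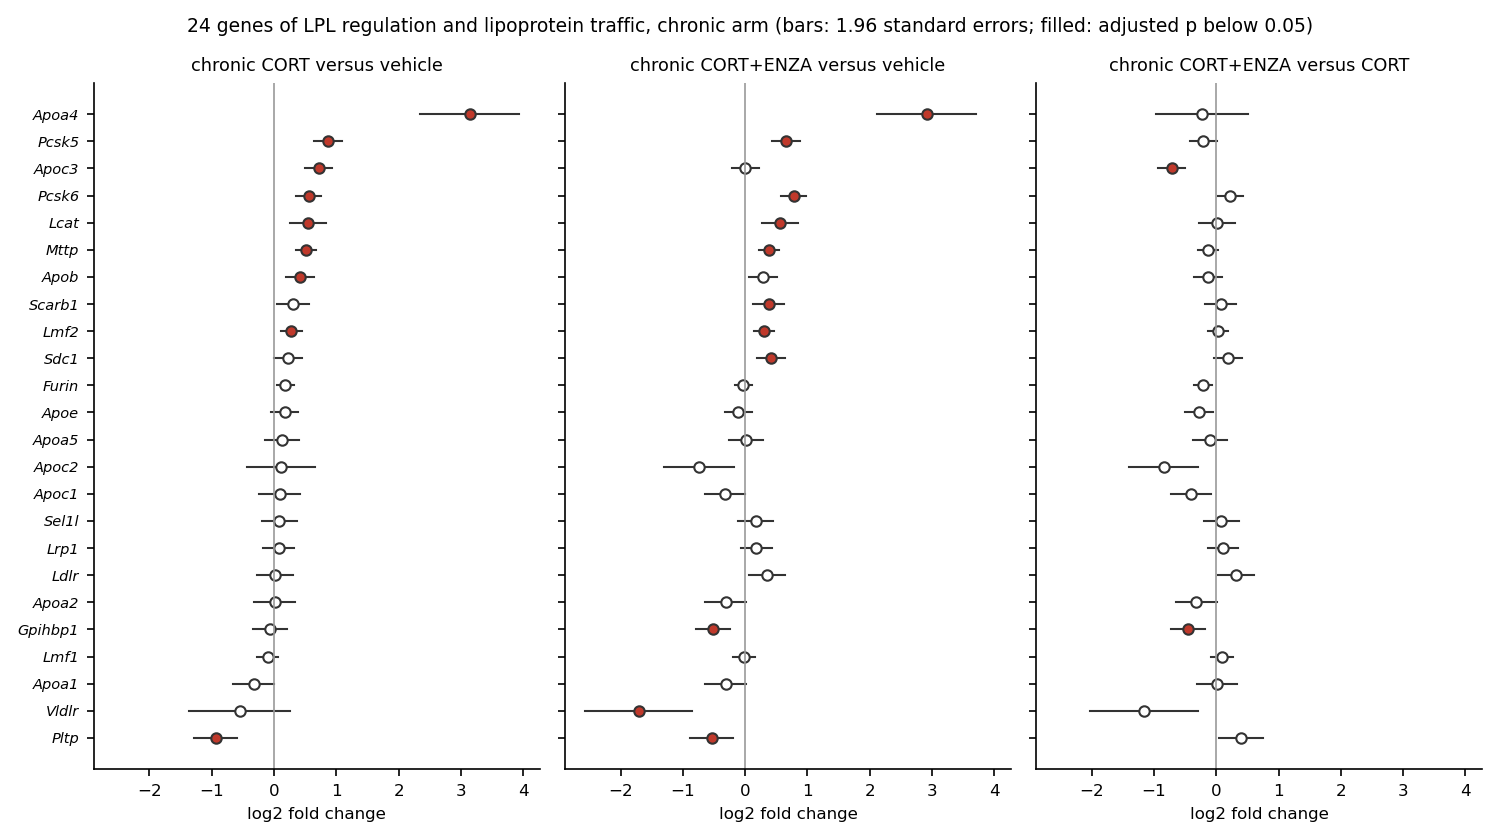
log2 fold change of the 24 genes of lipoprotein lipase regulation and lipoprotein traffic in the 3 chronic comparisons, with 95% intervals as bars and filled points for an edgeR adjusted p below 0.05, in the order of the chronic CORT values. Apoa4 lies farthest to the right in both comparisons with vehicle, at 3.14 and 2.92, and Apoc3 and Gpihbp1 are the filled points of CORT+ENZA against CORT.

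Angptl2, a further angiopoietin-like gene, fell by 0.96 ± 0.19 with chronic CORT (adjusted p = 0.00182) and by 0.60 ± 0.19 with chronic CORT+ENZA (adjusted p = 0.0315). Of 15 other lipase genes 9 were tested. With chronic CORT 0 were higher and 2 lower, and in chronic CORT+ENZA against CORT 1 was higher and 0 lower, both near the shares of all genes called, 18.3% and 11.8%. With chronic CORT+ENZA against vehicle 1 was higher and 3 lower, beside 18.6% of all genes. Pnpla3, a lipid droplet hydrolase gene, fell by 2.02 ± 0.59 with chronic CORT (adjusted p = 0.0252) and by 2.86 ± 0.63 with CORT+ENZA (adjusted p = 0.00396), and Ces1d, a triglyceride hydrolase gene, was higher in CORT+ENZA than in CORT by 0.61 ± 0.15 (adjusted p = 0.0115). In the acute arm Ces1d was the 1 of 9 called with ENZA, at 0.54 ± 0.10 (adjusted p = 0.00759), beside 1.31% of all genes.

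Of 16 insulin-responsive lipogenic genes, 7 were lower and 1 higher in chronic CORT+ENZA than in vehicle, with a median log2 fold change of -0.94, beside 18.6% of all genes called in either direction. In chronic CORT+ENZA against CORT 2 of 16 were lower and 0 higher, with a median of -0.36, which is near the 11.8% called among all genes. They were Scd1, the stearoyl-CoA desaturase gene, at -1.24 ± 0.28 (adjusted p = 0.00763), and Pklr, the liver pyruvate kinase gene, at -1.20 ± 0.25 (adjusted p = 0.00361). With chronic CORT alone 3 were lower and 1 higher, beside 18.3% of all genes called. With acute ENZA the list's median was 0.41, with 12 of 16 above 0 and 1 called, beside 1.31% of all genes. Of 20 targets of PPAR-alpha, the fatty acid receptor that also drives Angptl4, 2 were higher and 1 lower with chronic CORT (median 0.09), a share below the 18.3% called among all genes. With chronic CORT+ENZA 7 of 20 were higher and 0 lower (median 0.22), beside 18.6% of all genes. With acute CORT 0 of 20 were called, where 1.62% of all genes were. Cyp4a14, a fatty acid hydroxylase gene, was higher by 3.98 ± 0.77 with chronic CORT (adjusted p = 0.00184).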

How the data were processed

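Livers of 42 mice were profiled by stranded mRNA sequencing. The authors deposited raw read counts per Ensembl gene in an acute and a chronic table; per the submitters' processing notes FastQC, MultiQC, STAR 2.7.3a, HTSeq 0.12.4 and mm10 were used, while for HTSeq no strand setting or annotation release is given. Its 5 summary lines entered neither library sizes nor tests. They held multi-mapped reads at 9.34 to 12.8% in acute and 18.6 to 22.7% in chronic libraries, and ambiguous reads at 2.07 to 2.85% and 1.9 to 2.47%.

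Each arm was filtered (filterByExpr, minimum count 10), TMM-normalized and fitted over all its groups with edgeR 4.0.16's quasi-likelihood test (R 4.3.3), and both arms jointly for the chronic minus acute differences. Adjusted p-values are Benjamini-Hochberg over all genes tested, with calls under 0.05. Levels are CPM with TMM-normalized library sizes, and per-kilobase levels use the longest coding transcript. Correlations used deviations from group means and 100000 permutations. The edgeR fits were also run on simulated counts drawn from the fitted dispersions. These held no outlying livers, so they cannot speak for calls that depend on the livers that stood apart. The labels name separate mice, and the edgeR tests set differences between groups against the spread between mice, estimated over all groups of a fit. At these depths members had between 118 and 8891 counts in a library.

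The members and gene lists were chosen with earlier results of these data known. Genes were named by rule: the 6 members, 5 partners (Apoc2, Apoc3, Apoa5, Gpihbp1 and Lmf1), Fkbp5 and Tsc22d3, at most 3 called genes of smallest p per list, direction and comparison, and the 3 genes most like each member. 1 further gene of these lists is not reported here. A230050P20Rik was added for its overlap with Angptl6. Alternatives were DESeq2 1.42.0, limma-voom (limma 3.58.1), RLE size factors, no filter or CPM of 1 in at least 6 libraries, fits of only the groups compared, a term for consecutive mouse numbers, and fits without single or named mice.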

Additional observations from a re-analysis of the deposited data

Results flagged for a closer look

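In each of the 42 sets of 6 mice (6 genes in 7 groups) the gap between the end mouse and its neighbour was compared with the range of the set. It was above 0.625 of the range in 9 sets. That cutoff is passed by about 1 in 20 sets of independent, normally distributed values. Here the CPM are on a linear scale and the 6 genes of a group share the same mice, so the 9 sets cannot be weighed against that rate. Acute vehicle mouse L1A stood high for Angptl8 at 413 CPM, with the next mouse at 158 CPM, and for Lipg at 16.95 CPM, with the next at 9.94. Acute vehicle mouse L31A stood high for Lpl at 37.64 CPM, with the next at 23.03, and low for Lipc at 85.99 CPM, with the next at 131. Chronic CORT mouse 1 stood high for Angptl8 at 401 CPM, with the next at 118.

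Acute ENZA mouse L17A stood high for Lpl at 52.94 CPM, with the next at 27.0. In acute CORT+ENZA, L6A stood high for Angptl6 at 11.99 CPM, L30A low for Lipc at 108.9 CPM and L36A low for Lipg at 11.5 CPM. Of the 9 sets, 8 were in the acute arm.

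The CORT effect on Lpl differed between the arms by -1.79 on the log2 scale (edgeR adjusted p = 0.0466), with the kit for RNA extraction changing with the arm, so that both cannot be told apart.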

How the results depend on the processing

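All 15 called values of the 6 genes kept their sign under every alternative and every omission of a mouse. They differed in how they held the threshold: 4 of the 15 stayed called under every alternative that kept all mice, and 5 stayed called with each single mouse left out. Of the 23 values without a call that lay at least 1 SE from 0, all kept their sign and 19 were called nowhere. The fall of Angptl8 in chronic CORT+ENZA against CORT was called in every setting, at -2.43 to -1.69. The lowest counts per library were those of Angptl6, Lipg and Lpl, which reached down to 118, 128 and 147, and the part of depth in their calls was not tested. The cause of the lost calls below was not tested, beyond that some settings test more genes or fewer mice.

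With DESeq2 the genes called numbered 432 for acute CORT, 388 for acute ENZA, 584 for acute CORT+ENZA, 59 for acute CORT+ENZA against CORT and 461 against ENZA, and 319, with 2 members, for the difference between the arms in the effect of ENZA added to CORT. With limma-voom and sample quality weights they numbered 356, 308, 674, 50 and 634 in the same acute comparisons, 3856 for chronic CORT+ENZA against vehicle, with 5 members, 1683 for the CORT difference between the arms and 460 for the ENZA difference. There, Lpl in chronic CORT+ENZA against CORT was 0.91 and not called, leaving 1 member. RLE size factors gave -0.41 for Angptl6 in chronic CORT+ENZA against vehicle, past the threshold by little (adjusted p = 0.0508), and 1 member for the ENZA difference between the arms, as did the filter of CPM of 1 in at least 6 libraries.

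With no low-count filter several calls were lost. Angptl4 had 1.03 with acute CORT, 1.00 with acute CORT+ENZA, 0.91 against ENZA, 0.70 with chronic CORT and 0.73 with chronic CORT+ENZA. Lipg had 0.78 with acute ENZA, and against vehicle in chronic CORT+ENZA Angptl6 had -0.41 and Angptl8 -1.49. Lpl had 1.64 in chronic CORT+ENZA against CORT and -1.81 for the CORT difference between the arms. The members called were then 0 for acute CORT, 0 for acute ENZA, 1 for acute CORT+ENZA against vehicle and 0 against ENZA, 0 for chronic CORT+ENZA against vehicle, 1 against CORT and 0 for the CORT difference. The genes called were 90 for acute ENZA, 156 for acute CORT+ENZA against ENZA and 509 for the CORT difference.

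In fits of only the groups compared, the genes called were 96 for acute CORT, 94 for acute ENZA and 203 for acute CORT+ENZA. Lipg was not called with acute ENZA (0.77, leaving 0 members) or acute CORT+ENZA (0.86, leaving 1), nor was Angptl4 in acute CORT+ENZA against ENZA (0.91, leaving 0) or in chronic CORT+ENZA against vehicle (0.73). Lpl in chronic CORT+ENZA against CORT was 1.66 and not called, leaving 1 member.

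Without acute vehicle L19A and acute CORT+ENZA L36A, Lipg with acute ENZA was 0.69 (0 members), Angptl4 with acute CORT+ENZA 1.04 against vehicle (1 member) and 0.91 against ENZA (0 members), and Lpl for the CORT difference between the arms -1.80 (0 members), none of these called. Acute CORT+ENZA against CORT then had 39 genes called. Without chronic vehicle 11 and chronic CORT+ENZA 18, Lpl in CORT+ENZA against CORT was 1.03 and not called, leaving 1 member, and the CORT difference had 1373 genes called.

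2 omissions were chosen after the markers of muscle, fat and Kupffer cells had been seen. Without chronic vehicle 10 and 15 and chronic CORT+ENZA 5, chronic CORT had 0 members and 1472 genes called, with Angptl4 at 0.62, Angptl6 at -0.37, Lpl at -1.61 and Lipg at 0.99. Chronic CORT+ENZA against vehicle had 0 members and 1516 genes called, with Angptl4 at 0.68, Angptl6 at -0.27 and Angptl8 at -1.20, and against CORT it had 1 member, with Lpl at 1.47 and not called. Without CORT+ENZA 18 as well, chronic CORT had 2 members called, with Angptl4 at 0.63 and Angptl6 at -0.36 no longer called. CORT+ENZA against vehicle then had 1 member called, with Angptl4 at 0.80, Angptl6 at -0.27 and Angptl8 at -1.25 not called, and against CORT 1 member, with Lpl at 0.39 not called.

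With each single mouse left out, Angptl4 ran from 0.92 to 1.20 with acute CORT, from 0.90 to 1.18 with acute CORT+ENZA, from 0.81 to 1.11 against ENZA, from 0.56 to 0.88 with chronic CORT and from 0.61 to 0.92 with chronic CORT+ENZA. Angptl6 ran from -0.58 to -0.39 with chronic CORT and from -0.49 to -0.34 with chronic CORT+ENZA. Lipg ran from 0.68 to 1.04 with acute ENZA. Lpl ran from 1.03 to 1.82 in chronic CORT+ENZA against CORT and from -1.98 to -1.56 for the CORT difference between the arms. Members called ran from 0 to 2 for acute CORT, 0 to 1 for acute ENZA, 1 to 2 for acute CORT+ENZA against vehicle and 0 to 1 against ENZA. They ran from 2 to 4 for chronic CORT, 1 to 4 for chronic CORT+ENZA against vehicle, 1 to 2 against CORT, and 0 to 1 for both differences between the arms. Genes called ran from 135 to 323 for acute CORT, 77 to 156 for acute ENZA, 207 to 413 for acute CORT+ENZA against vehicle, 14 to 22 against CORT and 118 to 253 against ENZA.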

Other observations

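In the acute arm, where the 24 lipoprotein genes had no call, single genes of fat synthesis and fat oxidation were called in groups given ENZA, where 1.31% (ENZA), 2.47% (CORT+ENZA against vehicle) and 1.81% (CORT+ENZA against ENZA) of all genes were called. Thrsp, a gene of lipogenic liver known to respond to thyroid hormone and feeding, was the 1 of 16 insulin-responsive lipogenic genes called with ENZA, at 1.32 ± 0.31 on the log2 scale (± SE, n = 6 mice per group, edgeR adjusted p = 0.035), and with CORT+ENZA against vehicle, at 1.47 ± 0.31 (adjusted p = 0.0114). Fasn, the fatty acid synthase gene, was lower in CORT+ENZA than in ENZA by 1.18 on the log2 scale (log2 -1.18 ± 0.29, adjusted p = 0.0351). Of the 20 PPAR-alpha targets, Ehhadh, a peroxisomal fatty acid oxidation gene, was called with ENZA, at 0.55 ± 0.13 (adjusted p = 0.035), and Cpt2 and Creb3l3 with CORT+ENZA against vehicle, at 0.37 ± 0.08 (adjusted p = 0.0106) and 0.38 ± 0.10 (adjusted p = 0.0307). The median of the lipogenic list was 0.41 with ENZA, with 12 of 16 genes above 0, and -0.25 with CORT+ENZA against vehicle, with 3 of 16 above 0. The median of the PPAR-alpha targets was 0.04 with ENZA and -0.01 with CORT+ENZA against vehicle.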
